A study of Capra hircus with 20 samples.

Results

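The genes described here encode the proteins that coat the lipid droplet of a fat cell and the lipases that empty it. They were the perilipins PLIN1, PLIN2, PLIN3, PLIN4 and PLIN5, the droplet protein CIDEC, the lipases PNPLA2, LIPE and MGLL, and the lipase inhibitor G0S2. Members were chosen by gene symbol, and all 10 were found among the 20587 genes of the mRNA table, with 36 of its 43766 transcripts. The transcripts of a gene were summed, and values are FPKM, fragments per kilobase of transcript scaled to the mapped fragments of the library, so that levels of different genes can be set side by side on a scale that corrects for length.

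A lipid droplet is a core of triglyceride and sterol ester under a single layer of phospholipid, on which coat proteins sit. Perilipins limit the access of lipases to the core, and CIDEC joins droplets into larger ones in white fat. In lipolysis, PNPLA2 (ATGL) takes the first fatty acid from triglyceride, LIPE (hormone-sensitive lipase) acts on diglyceride and MGLL on monoglyceride, while G0S2 inhibits PNPLA2 and ABHD5 activates it.

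RNA was taken from goat (Capra hircus) preadipocytes isolated from 7-day-old male Jianzhou Daer goats and grown to passage 3. Intramuscular preadipocytes (IMPA) came from the longissimus dorsi muscle and subcutaneous preadipocytes (SPA) from the fat under the skin, both collected on day 0 without oleic acid. Intramuscular adipocytes (IMA) and subcutaneous adipocytes (SA) were the same kinds of cells after 3 days in medium with 50 µmol/L oleic acid, and each of the 4 groups had 5 libraries. No group carried a genetic change, and no group was kept for 3 days without oleic acid, so time in culture and the fatty acid cannot be told apart. The paper lists 5 goats, from which both tissues were taken, and describes the 5 samples of a group as biological replicates. The labels do not tie a library number to a goat, so groups that may share animals were compared without pairing. The p-values measure the spread between libraries, which may be partly technical.

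No fragment counts were used here, the depth of single values is therefore unknown, and a gene listed at 0 may lie below what its library could detect. Summed mRNA values lay between 373889 and 413880 FPKM per library, with 27518 to 32122 transcripts above 0. Of 8 adipocyte markers listed, 7 were in the table, and they did not move together. ADIPOQ and LEP, the adipocyte hormones, averaged under 1 FPKM in every group, LEP was listed at 0 in all SA libraries, and PPARG, the main adipogenic transcription factor, averaged between 0.364 FPKM in IMA and 1.03 FPKM in SA. CEBPA, another adipogenic transcription factor, was higher, at 9.23 FPKM in IMPA, 5.42 in IMA, 5.05 in SPA and 3.91 in SA, and fell in both cell types. LPL averaged between 0.549 and 1.34 FPKM and GPD1 between 1.44 and 1.81 FPKM, while CD36 reached 4.91 FPKM in IMA and rose in both cell types. Of 5 markers of preadipocytes and stroma, DLK1 was under 1 FPKM in every group and the other 4 were well above it. DCN averaged 660.5 FPKM in IMPA, 535.1 in IMA, 5441 in SPA and 4120 in SA, and PDGFRA 148.4, 106.7, 572.3 and 326.7 FPKM, and both fell in both cell types, as did THY1 in SA (log2 change -1.21) but not in IMA (-0.01). DCN, PDGFRA and THY1 were lower in intramuscular than in subcutaneous cells at both stages. COL1A1 did not go with them, as its log2 changes of 0.07 in IMA and 0.37 in SA did not pass. Between IMPA and SPA COL1A1 did not pass either (-0.17), and it was lower in IMA than in SA. The summed level of 10 skeletal muscle markers ranged from 2634 to 3038 FPKM in IMPA and from 9140 to 9812 FPKM in IMA, but only from 6.55 to 19.6 FPKM in SPA and from 7.27 to 8.94 FPKM in SA. Of these 10 markers, 8 rose and 1, MYOD1, fell in IMA against IMPA, where 19.9% of all genes tested were called higher and 40.2% lower. Several muscle and stroma markers therefore moved with both stage and cell type, and the part of such markers in the results below was not tested. In libraries of whole cultures, fewer cells of a type and less RNA per cell cannot be told apart.

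PLIN2 held most of the coat signal. Mean levels placed PLIN2 first and PLIN3 next in every group, with no overlap between the 2 genes in any of the 4 groups. The third place differed between cell types, being G0S2 in IMPA and IMA and CIDEC in SPA and SA, although in IMPA the range of G0S2 overlapped that of PNPLA2. In IMA, PNPLA2 and MGLL followed at 3.64 and 3.498 FPKM and overlapped, and in SA, G0S2 and PNPLA2 overlapped at 3.17 and 2.76 FPKM. PLIN1, LIPE, PLIN4 and PLIN5 stayed under 1 FPKM in all 20 libraries and were left out of the fit across genes, which took the 11432 genes with a mean of at least 1 FPKM.

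**Figure D1:**
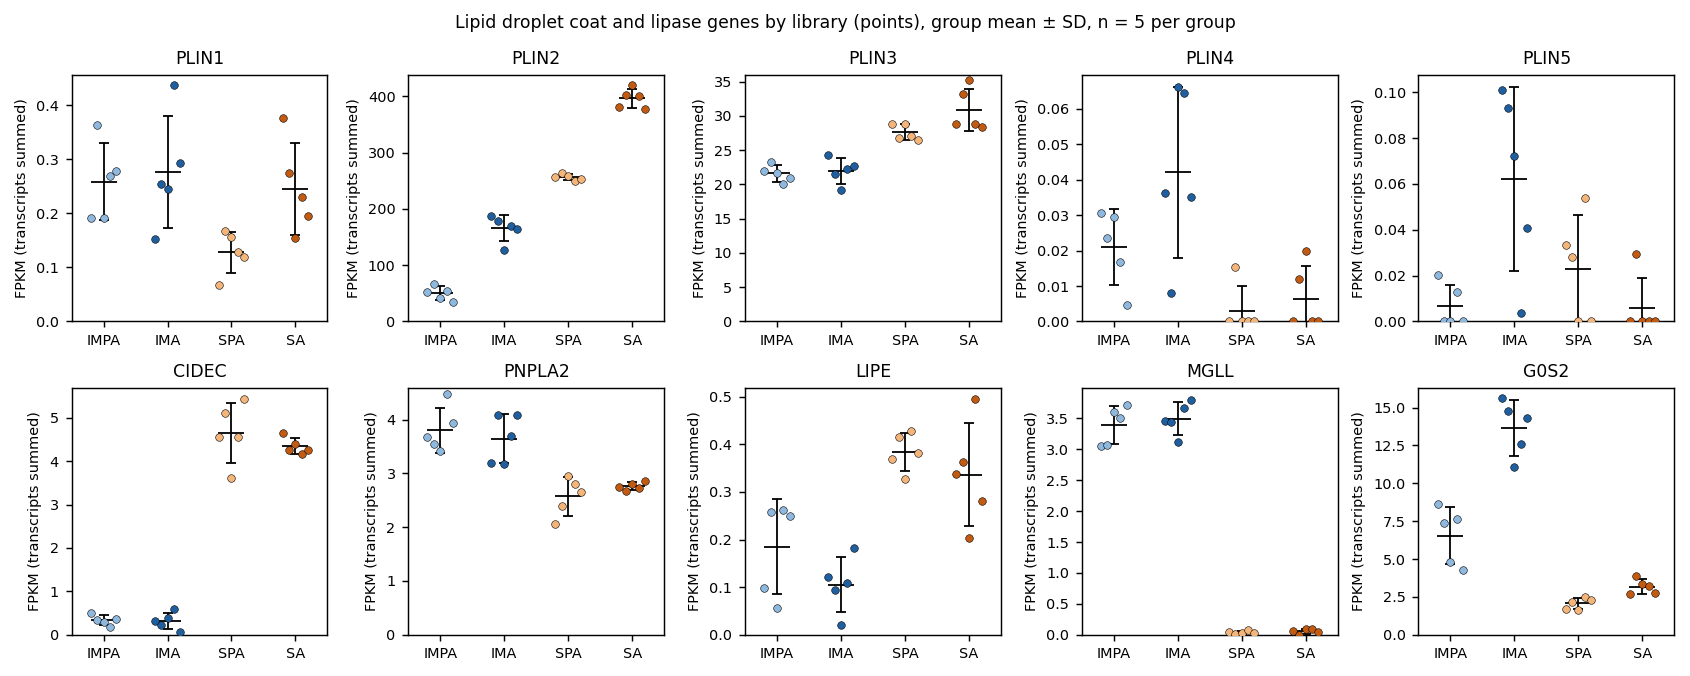
FPKM of the 10 genes in each library (points), with the group mean and SD (bars, n = 5 per group), on a separate linear axis per gene that starts at 0 and cuts SD bars there. PLIN2 and G0S2 were higher in IMA than in IMPA and in SA than in SPA without overlap, CIDEC was high only in the subcutaneous groups and MGLL only in the intramuscular ones.

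After induction, PLIN2 and G0S2 rose in both cell types and no tested member fell. In IMA against IMPA, 2 of the 6 members tested had an adjusted p under 0.05, whereas 60.1% of all genes tested did, 19.9% being higher and 40.2% lower. In SA against SPA, again 2 of 6 passed, against 52.1% of all genes, 26.1% higher and 26% lower. The groups of PLIN2 and of G0S2 did not overlap in either comparison, which held for 43.5% of all genes in the intramuscular and 38.8% in the subcutaneous comparison. The shares of members called thus lay below the background of both comparisons, while both genes called were among those that rose. The median log2 fold change of the 6 members was 0.03 in IMA and 0.12 in SA, where the medians of all genes were -0.09 and -0.01. These tests were made with limma on log2(FPKM + 1), as were all adjusted p values below unless another test is named.

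**Figure D2:**
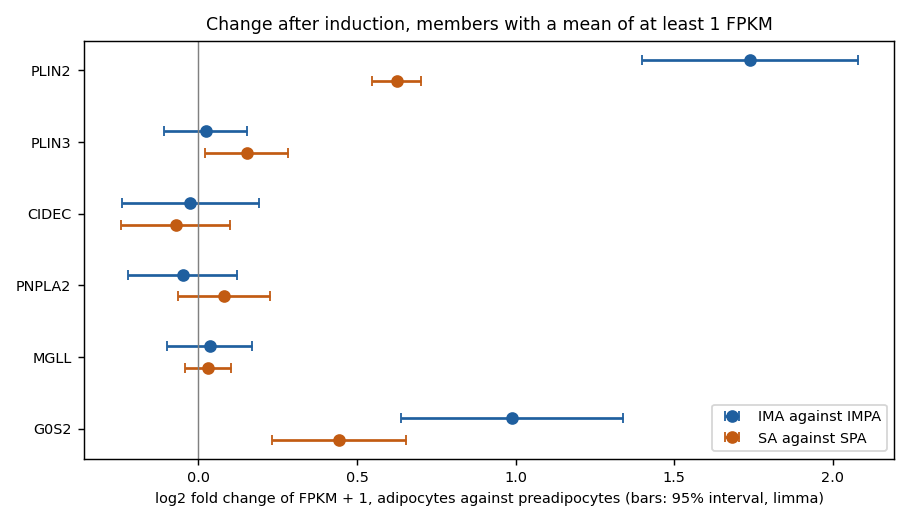
Log2 fold change of FPKM + 1 after induction for the 6 tested genes, with 95% intervals from limma, in IMA against IMPA and in SA against SPA. PLIN2 lies at 1.74 and 0.62 and G0S2 at 0.99 and 0.44, while the intervals of CIDEC, PNPLA2 and MGLL include 0 in both cell types.

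PLIN2 (gene ID 100861245) is the perilipin that most cell types place on their droplets. The 5 IMPA libraries had 51.8, 67.3, 41.2, 53.9 and 34.9 FPKM, with a mean of 49.8 ± 12.5 (SD, n = 5). In IMA, the libraries had 187.8, 178.4, 127.7, 170.3 and 164.7 FPKM, with a mean of 165.8 ± 23.0 (SD, n = 5). Every IMA library thus lay above every IMPA library, and the log2 fold change was 1.74 (SE 0.156, adjusted p = 2.48e-06). In SPA, levels were already higher than in IMA, at 256.5, 264.2, 259.4, 249.9 and 252.9 FPKM, and in SA they were 380.4, 403.1, 419.7, 401.5 and 377.3 FPKM. The SPA libraries varied little around their mean, 256.6 ± 5.58 FPKM (SD, n = 5), and no SA library reached down to them, the SA mean being 396.4 ± 17.6 FPKM (SD, n = 5). This rise had a log2 fold change of 0.62 (SE 0.0357, adjusted p = 2.70e-08).

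The log2 change of PLIN2 was larger in intramuscular than in subcutaneous cells. The difference of the changes was 1.11 (SE 0.170, adjusted p = 1.12e-05), in a comparison in which 2 of the 6 members and 55.3% of all genes passed, 20.7% of all genes with a larger and 34.6% with a smaller change in intramuscular cells. On the linear scale the order was the other way round, since PLIN2 rose by 115.9 FPKM in intramuscular and by 139.8 FPKM in subcutaneous cells, a difference that was not tested. PLIN2 was 2.39 times as high in SA as in IMA.

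The share of reads that the study could align moved with the stage, because it was higher in every IMPA library than in every IMA library and in every SPA library than in every SA library. Within IMPA, the order of the libraries by PLIN2 from high to low was exactly their order by aligned share from low to high. In IMA the order by PLIN2 differed from that by aligned share only in that IMA1 and IMA2 changed places. The order of G0S2 in IMPA likewise differed only in the places of IMPA1 and IMPA2. In SPA and SA the orders of PLIN2 and aligned share did not match. With that share as a covariate, the intramuscular change of PLIN2 was 0.03 (adjusted p = 0.952), that of G0S2 was -0.27 (adjusted p = 0.775), and the number of all genes called fell from 6867 to 731. Since the groups do not overlap in it, aligned share and stage cannot be told apart. The share was also higher in every IMPA library than in every SPA library, and in every IMA library than in every SA library. At one stage, aligned share and cell type therefore cannot be told apart either. In SA against SPA, PLIN2 had a change of 0.67 with the covariate (adjusted p = 4.04e-05).

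Of the 36 member transcripts, 11 had a mean of at least 1 FPKM and were tested one by one. In IMA against IMPA 3 of them passed (33.4% of all 16706 transcripts tested did), in SA against SPA 5 (25.9%), in the difference of the changes 3 (30.4%), in IMPA against SPA 7 (50.5%) and in IMA against SA 10 (46.9%). PLIN2 was annotated with 4 transcripts, of which 3 carried nearly all of the signal. XM_018051766.1, the most abundant, averaged 23.7 FPKM in IMPA, 82.6 in IMA, 126.7 in SPA and 223.9 in SA, and rose by 1.80 in intramuscular cells (adjusted p = 0.000186) and by 0.82 in subcutaneous cells (adjusted p = 8.88e-08) on the log2 scale. XM_018051767.1 rose by 1.40 (adjusted p = 0.000216) and by 0.80 (adjusted p = 0.000242). The curated RefSeq transcript NM_001285596.1 held the smallest part, with group means between 0.876 and 1.59 FPKM.

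The remaining transcript, XR_001918405.1, bears the RefSeq prefix for a non-coding model of the gene. It rose by 1.75 in intramuscular cells (adjusted p = 1.67e-05) and by 0.23 in subcutaneous cells (adjusted p = 0.0192). Its share of the PLIN2 sum was 35.4% ± 2.05 in IMPA, 36.6% ± 1.70 in IMA, 37.5% ± 1.08 in SPA and 28.6% ± 1.57 in SA (SD, n = 5 each). SA therefore stood apart from the other 3 groups, and its highest library, at 30.4%, was below the lowest SPA library, at 35.9%. The difference of SA and SPA was -8.89 percentage points (two-sided exact permutation test, p = 0.00794, the smallest that 5 libraries against 5 allow, adjusted p = 0.0159 over 4 tests), and that of IMA and IMPA was 1.18 points (exact p = 0.317). This transcript was singled out after its values had been seen, and reads shared between models of one gene can be divided differently from library to library. Without it, the sum of the other 3 PLIN2 transcripts rose by 0.81 in SA (adjusted p = 9.01e-10).

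**Figure D3:**
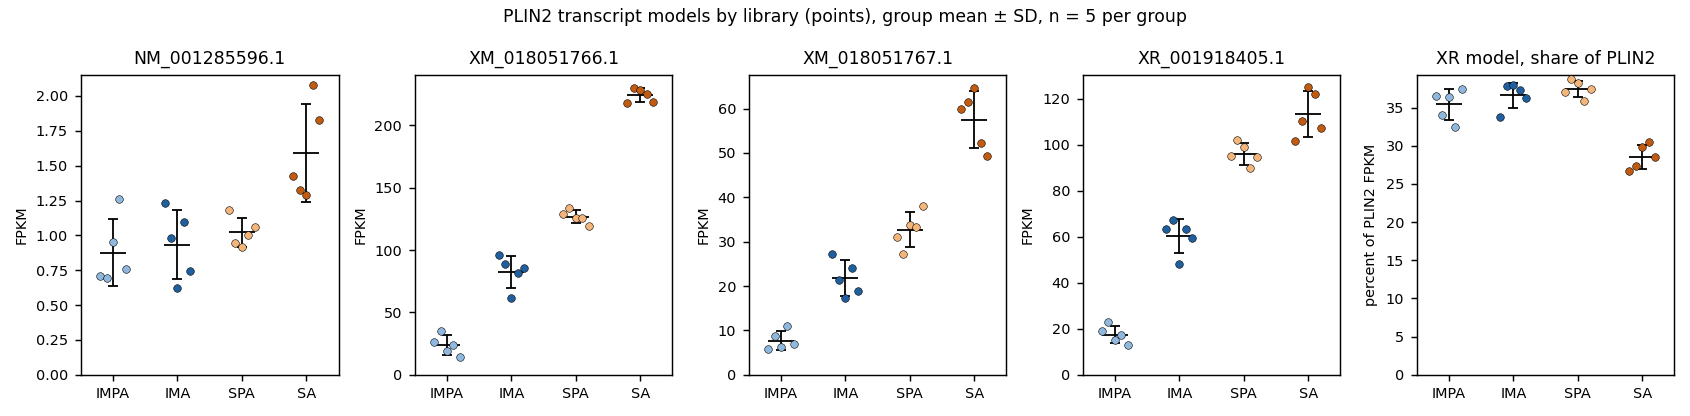
FPKM of the 4 PLIN2 transcripts in each group and library, and the percentage of the PLIN2 sum held by the non-coding model XR_001918405.1, with group mean and SD (n = 5). The share of that model was 28.6% in SA and between 35.4% and 37.5% in the other groups.

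PLIN3, a perilipin that moves between the cytosol and newly formed droplets, differed less between the groups than PLIN2 did. The IMPA libraries had 22.0, 23.3, 21.6, 20.1 and 21.0 FPKM and the IMA libraries 24.3, 21.5, 19.2, 22.3 and 22.7 FPKM, and the groups overlapped. The log2 change was 0.02, with a 95% interval from -0.11 to 0.15. In SPA the 5 values were 28.8, 26.8, 28.9, 27.1 and 26.4 FPKM and in SA they were 28.8, 33.1, 35.2, 28.8 and 28.4 FPKM, so that the SA mean of 30.9 ± 3.10 rested on SA2 and SA3. The subcutaneous change of 0.15 missed the threshold (adjusted p = 0.0516), and it passed without SA1 (adjusted p = 0.0395), SA4 (adjusted p = 0.0401) or SA5 (adjusted p = 0.0312). Only these 3 of the 10 fits that left out 1 library passed, and the adjusted p reached 0.117. It also passed with all 4 groups in the fit (adjusted p = 0.0454), with the most abundant transcript (0.17, adjusted p = 0.0281), without SPA1 and SA5 together (0.19, adjusted p = 0.0337), with a replicate block (adjusted p = 0.0409) and with the aligned share as a covariate, where it was 0.40 (adjusted p = 0.00838). It did not pass in the rest of the 12 alternative settings, over which the change was as low as 0.084 and the adjusted p as high as 0.163. The ratio of PLIN2 to PLIN3 followed PLIN2, at 2.30 ± 0.512 in IMPA, 7.52 ± 0.603 in IMA, 9.30 ± 0.400 in SPA and 12.9 ± 0.839 in SA. PLIN2 made up 68.8% ± 4.95 of the summed FPKM of the 5 perilipins in IMPA, 88.0% ± 0.879 in IMA, 90.2% ± 0.365 in SPA and 92.7% ± 0.435 in SA (SD, n = 5 each).

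CIDEC, known for the growth of droplets toward the single large droplet of white fat, separated the cell types and not the stages. It had between 0.0702 and 0.586 FPKM in the 10 intramuscular libraries and between 3.61 and 5.42 FPKM in the 10 subcutaneous ones. The means were 0.333 ± 0.113 in IMPA, 0.318 ± 0.194 in IMA, 4.65 ± 0.688 in SPA and 4.35 ± 0.187 in SA (FPKM, SD, n = 5 each), a ratio of 13.95 between SPA and IMPA and of 13.7 between SA and IMA. The change after induction was -0.03 in IMA and -0.07 in SA, with 95% intervals from -0.24 to 0.19 and from -0.24 to 0.10. Among the 4 CIDEC transcripts, XM_005695622.3 held 54.3% of the gene in SPA and 74.5% in SA, and XM_005695623.3 held 33.6% and 6.54%.

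PLIN1, which guards the droplets of mature adipocytes, was above 0 in all 20 libraries and under 0.5 FPKM in each. Its lowest, median and highest values were 0.191, 0.268 and 0.362 FPKM in IMPA, 0.152, 0.254 and 0.438 in IMA, 0.0680, 0.128 and 0.166 in SPA, and 0.154, 0.229 and 0.375 in SA. SA exceeded SPA with a mean ratio of 1.92 (two-sided exact permutation test, p = 0.0238, adjusted p = 0.0476 over the 16 tests of the genes under the filter), though the groups overlapped. IMPA exceeded SPA without overlap (exact permutation p = 0.00794, adjusted p = 0.0423). PLIN1 thus reached at most 0.438 FPKM in a library, in groups where PLIN2 had 34.9 FPKM or more.

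PLIN4 and PLIN5 are neighbouring genes in the RefSeq annotation of the goat assembly ARS1.2. PLIN5, the perilipin of oxidative tissues such as muscle, had 0.0205, 0, 0, 0.0127 and 0 FPKM in IMPA and 0.101, 0.0931, 0.0721, 0.00373 and 0.0406 FPKM in IMA. The exact permutation p was 0.0238 (adjusted p = 0.0476 over the same 16 tests), at levels of at most 0.101 FPKM, and IMA4 lay inside the range of IMPA. Only 1 SA library, SA2, had PLIN5 above 0, and 3 of the 5 SPA libraries did. PLIN4 was highest in IMA, at 0.0420 ± 0.0240 FPKM (SD, n = 5), and was listed at 0 in 4 SPA and 3 SA libraries. IMA differed from SA (exact permutation p = 0.0238, adjusted p = 0.0476) and IMPA from SPA (exact permutation p = 0.0159, adjusted p = 0.0476), whereas IMA and IMPA did not pass (exact permutation p = 0.127).

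PNPLA2, the enzyme of the first step of lipolysis, stayed level after induction. Its 5 values were 3.67, 3.54, 3.41, 4.47 and 3.93 FPKM in IMPA and 3.18, 4.08, 3.17, 3.70 and 4.09 FPKM in IMA, which overlapped. In SPA they were 2.05, 2.39, 2.96, 2.81 and 2.65 FPKM and in SA 2.75, 2.67, 2.81, 2.73 and 2.87 FPKM, again with overlap. The log2 change was -0.05 in IMA (95% interval -0.22 to 0.12) and 0.08 in SA (95% interval -0.06 to 0.23). Both intramuscular groups lay above the subcutaneous group of the same stage without overlap.

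LIPE, the hormone-sensitive lipase, was under 0.5 FPKM in all libraries. Means were 0.185 ± 0.0995 in IMPA, 0.105 ± 0.0584 in IMA, 0.384 ± 0.0401 in SPA and 0.336 ± 0.108 in SA (FPKM, SD, n = 5 each). The subcutaneous groups were higher than the intramuscular ones at both stages, with no overlap (exact permutation p = 0.00794, adjusted p = 0.0423 over the 16 tests in both cases). Neither cell type passed the test for a change after induction, with exact permutation p = 0.159 in intramuscular and p = 0.365 in subcutaneous cells. The split between its transcripts did move, as XM_018062482.1 held 81.2% of the gene in SPA and 17.8% in SA, and XM_018062484.1 held 12.7% and 81.4%. With a minimum of 0.1 FPKM per transcript, their log2 changes in SA were -0.31 (limma, adjusted p = 0.00411) and 0.28 (adjusted p = 0.0389).

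MGLL, which releases the last fatty acid and glycerol, was a gene of the intramuscular libraries. IMPA libraries had 3.05, 3.07, 3.61, 3.51 and 3.72 FPKM and IMA libraries 3.46, 3.44, 3.12, 3.67 and 3.80 FPKM. In SPA the gene had between 0.0156 and 0.0694 FPKM and in SA between 0 and 0.0959 FPKM. The intramuscular change after induction was 0.04 on the log2 scale (95% interval -0.10 to 0.17). Of its 6 transcripts, XM_018067058.1 and XM_018067057.1 made up the intramuscular signal and both were listed at 0 in all 10 subcutaneous libraries. Their split was unstable, for in IMA2 the first was listed at 0 and the second at 3.43 FPKM, while the sum of the gene hardly moved.

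G0S2 (gene ID 108637793), the inhibitor of PNPLA2, rose with PLIN2. The IMPA libraries had 8.63, 7.37, 4.83, 7.67 and 4.26 FPKM, and the IMA libraries 15.6, 14.8, 11.05, 12.6 and 14.3 FPKM. The means, 6.55 ± 1.90 and 13.7 ± 1.83 (SD, n = 5), differed by a factor of 2.09, and the log2 change was 0.99 (SE 0.160, adjusted p = 0.000237). In subcutaneous cells levels were lower, at 1.70, 2.15, 1.66, 2.50 and 2.32 FPKM in SPA and 2.66, 3.86, 3.33, 3.25 and 2.75 FPKM in SA. All SA libraries lay above all SPA libraries, although SA1 at 2.66 and SPA4 at 2.50 FPKM were close, and the log2 change was 0.44 (SE 0.0966, adjusted p = 0.00218).

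The log2 change of G0S2 differed between the cell types by 0.54 (SE 0.198, adjusted p = 0.0248). That difference did not pass with a pseudocount of 0.1 (adjusted p = 0.0877) or without IMPA3 (0.46, adjusted p = 0.0532), and with the aligned share as a covariate it was -0.45 (adjusted p = 0.455). The gene has 4 models, and the estimates moved between them from library to library: in SPA4 XM_018060779.1 was listed at 0.000268 FPKM and XM_018060781.1 at 1.49, while in SPA1 they were at 1.70 and 0. With the most abundant model in place of the sum, the changes were 0.92 in IMA (adjusted p = 0.0776) and 0.53 in SA (adjusted p = 0.214), and with the aligned share as a covariate the SA change was 0.36 (adjusted p = 0.204).

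The other regulators of PNPLA2 did not change alike in the 2 cell types. ABHD5, the activator, averaged 2.40 ± 0.0767 FPKM in IMPA, 3.86 ± 0.0919 in IMA, 1.48 ± 0.105 in SPA and 1.29 ± 0.207 in SA (SD, n = 5 each). It rose in IMA by 0.52 on the log2 scale (adjusted p = 9.17e-07) and did not pass in SA (-0.12, adjusted p = 0.128), and the changes differed by 0.63 (adjusted p = 3.65e-07). HILPDA, a hypoxia-inducible droplet protein that also inhibits PNPLA2, rose from 6.56 ± 1.79 to 16.9 ± 0.645 FPKM in intramuscular cells (log2 change 1.28, adjusted p = 4.85e-06). In subcutaneous cells it fell from 15.0 ± 1.00 to 13.5 ± 0.813 FPKM (log2 change -0.14, adjusted p = 0.0441), close to the threshold and with overlapping groups, and the difference of the changes was 1.42 (adjusted p = 3.36e-08).

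Per unit of PNPLA2, the inhibitor G0S2 was at 1.73 ± 0.507 in IMPA, 3.78 ± 0.632 in IMA, 0.811 ± 0.142 in SPA and 1.15 ± 0.200 in SA. The ratio of ABHD5 to PNPLA2 was 0.636 ± 0.0728 in IMPA and 1.07 ± 0.114 in IMA, and it was 0.591 ± 0.130 in SPA and 0.469 ± 0.0824 in SA. Activator and inhibitor set against each other gave an ABHD5 to G0S2 ratio of 0.393 ± 0.119 in IMPA, 0.287 ± 0.0419 in IMA, 0.740 ± 0.165 in SPA and 0.410 ± 0.0468 in SA (SD, n = 5 each). The SA libraries, between 0.359 and 0.483, lay below all SPA libraries, between 0.549 and 0.966, whereas IMA and IMPA overlapped. These ratios are of RNA levels and were not tested.

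**Figure D4:**
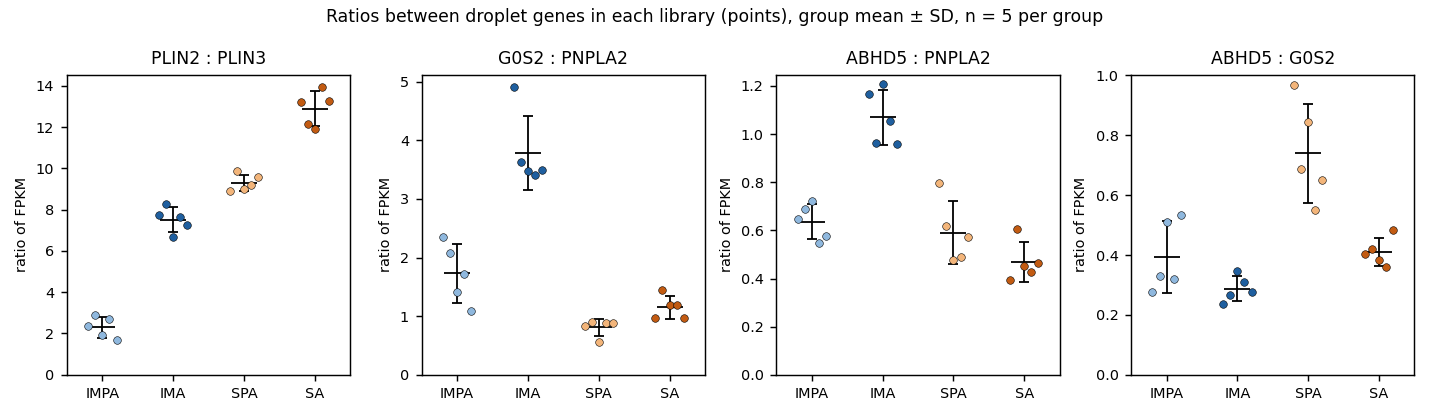
Ratios of FPKM between droplet genes in each library (points) with group mean and SD (bars, n = 5 per group). PLIN2 to PLIN3 and G0S2 to PNPLA2 are higher in IMA than in every IMPA library, and ABHD5 to G0S2 is lower in SA than in every SPA library.

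Between the cell types at one stage, 3 of the 6 tested members were lower and 3 were higher in intramuscular cells, by differences of unlike size. All 6 tested members passed in IMPA against SPA, where 75.1% of all genes did (42.3% higher and 32.9% lower in IMPA), and none of the 6 overlapped, as was the case for 63.4% of all genes. In IMA against SA all 6 passed as well, against 72.4% of all genes (29% higher and 43.4% lower in IMA), without overlap, as for 58.6% of all genes. CIDEC and MGLL reached the minimum mean only through the cell type in which they were high, so these counts describe the genes and give no support. PLIN2, PLIN3 and CIDEC were lower in intramuscular cells, with log2 differences of -2.38, -0.34 and -2.08 between IMPA and SPA and of -1.26, -0.47 and -2.03 between IMA and SA. MGLL, G0S2 and PNPLA2 were higher, with 2.08, 1.27 and 0.43 between the preadipocytes and 2.08, 1.81 and 0.30 between the adipocytes. On the linear scale, mean MGLL was 91.4 times as high in IMPA as in SPA, a ratio that rests on subcutaneous values under 0.1 FPKM. Muscle markers were higher in the intramuscular groups for 10 of 10 genes at both stages. Of these markers, 8 averaged under 1 FPKM in SPA and 9 in SA. Those reached the minimum mean only through the intramuscular groups, so this count gives no support either. With the aligned share as a covariate the differences of PLIN2, PLIN3 and PNPLA2 between IMPA and SPA did not pass (-0.60, -0.26 and 0.61, with adjusted p = 0.226, 0.410 and 0.285). IMPA and SPA do not overlap in that share, so it cannot be told apart from cell type there.

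Other droplet genes moved in both directions. Of 42 other droplet and lipolysis genes, 38 were in the table and 26 were tested. In IMA against IMPA, 7 rose, 9 fell and 10 did not pass, with a median log2 change of -0.06 where that of all genes was -0.09. Of all genes 60.1% passed there, 19.9% higher and 40.2% lower, so these counts lie near the background. In SA against SPA, 8 rose, 4 fell and 14 did not pass, with a median of 0.02 where that of all genes was -0.01, and 52.1% of all genes passed, 26.1% higher and 26% lower. Genes for droplet formation, such as DGAT1 (the last step of triglyceride synthesis) and BSCL2 (seipin), included none that rose in IMA, where AUP1 and FITM1 fell, and in SA AUP1 rose while BSCL2 and DGAT1 fell.

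Several droplet and lipolysis genes went opposite ways in the 2 cell types. LIPA, the lysosomal acid lipase, fell from 46.8 ± 2.79 to 28.9 ± 0.946 FPKM in intramuscular cells and rose from 71.4 ± 2.62 to 76.5 ± 3.29 FPKM in subcutaneous cells, the latter just past the threshold (adjusted p = 0.0452). PRKAR2B, a regulatory subunit of protein kinase A, fell from 21.8 ± 2.04 to 15.4 ± 0.654 FPKM and rose from 3.37 ± 0.483 to 7.18 ± 0.390 FPKM (SD, n = 5 each). Both had an adjusted p under 0.05 in each cell type and in the test of the difference, and AUP1, LDAH and FABP5 likewise fell in IMA, rose in SA and passed the test of the difference. These 5 genes were picked from the list after their values had been seen. HILPDA, described above, went the other way round, rising in IMA and falling in SA. Of all genes, 60.1% were called in the intramuscular comparison, 52.1% in the subcutaneous one and 55.3% in the difference. The share of all genes called in opposite directions was not computed. ADRB3, the adrenergic receptor of white fat, was under 1 FPKM in every group and listed at 0 in all IMA and SPA libraries.

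CIDEA, the relative of CIDEC known from brown fat, had a pattern unlike that of CIDEC. It averaged 27.8 ± 4.33 FPKM in IMPA, 44.4 ± 9.37 in IMA, 7.47 ± 3.49 in SPA and 8.79 ± 6.18 in SA (SD, n = 5 each). It rose in IMA (log2 change 0.65, adjusted p = 0.00155), and in SA the change of 0.08 had a wide 95% interval, from -0.81 to 0.98. The difference of the changes did not pass (0.56, adjusted p = 0.311).

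**Figure D5:**
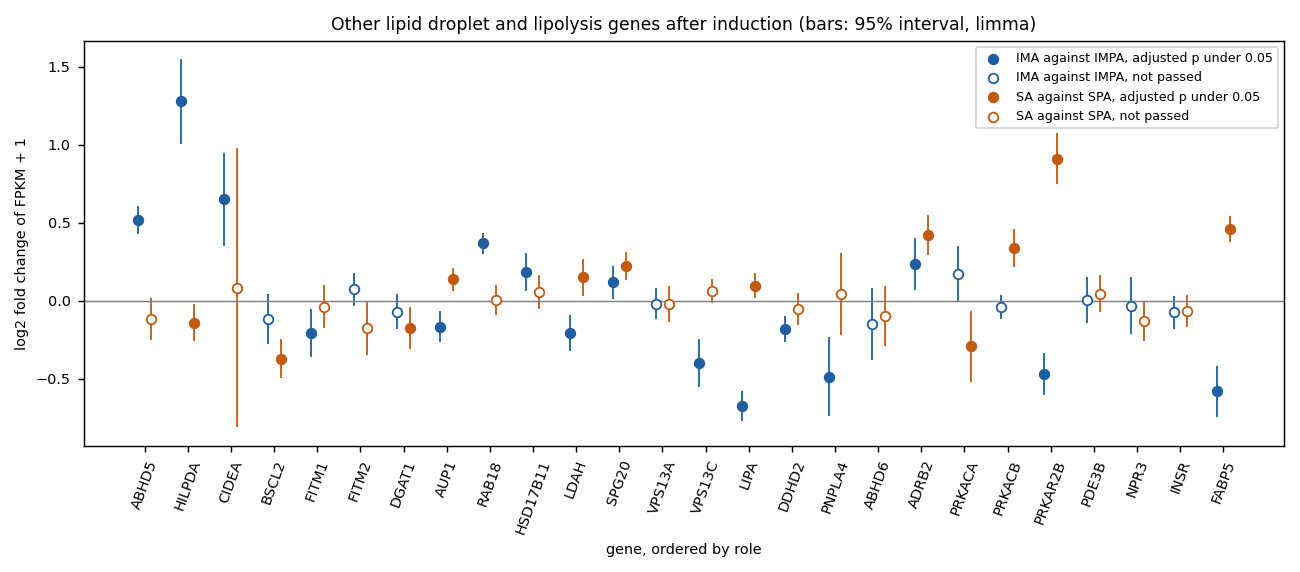
Log2 fold change of FPKM + 1 after induction, with 95% intervals from limma, for the 26 other droplet and lipolysis genes tested, in IMA against IMPA and in SA against SPA (filled points, adjusted p under 0.05). HILPDA lies highest in IMA at 1.28 and at -0.14 in SA, and CIDEA has the widest interval, from -0.81 to 0.98 in SA.

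Genes that fatty acids are known to switch on through PPAR receptors were looked at beside PLIN2, itself a gene of that kind. Of 8 such genes, 6 were tested, and 3 rose in IMA, where 19.9% of all genes were called higher, and 5 in SA, where 26.1% were, with none of the 6 called lower. CD36 reached the minimum mean only through IMA, and these genes were named after their values had been seen. The counts are therefore a description and give no support. Oleic acid, time in culture and aligned share cannot be told apart here, and a part of PPAR receptors was not tested. PDK4, which restrains glucose oxidation, went from 1.33 ± 0.326 to 9.25 ± 0.759 FPKM in intramuscular and from 3.98 ± 0.258 to 9.11 ± 0.490 FPKM in subcutaneous cells. ANGPTL4, an inhibitor of lipoprotein lipase, rose from 21.4 ± 6.51 to 47.4 ± 4.50 and from 41.0 ± 1.72 to 56.6 ± 3.60 FPKM, and CD36, a fatty acid transporter, from 0.252 ± 0.125 to 4.91 ± 0.356 and from 0.0679 ± 0.0277 to 0.934 ± 0.360 FPKM (SD, n = 5 each). On log2(FPKM + 1), the changes of PDK4, ANGPTL4 and CD36 were larger in intramuscular cells by 1.13, 0.70 and 1.41 (adjusted p = 1.52e-08, 0.00387 and 1.45e-08). CD36 averaged under 1 FPKM in IMPA, SPA and SA, where adding 1 shrinks a log2 change, so its difference depends in part on that constant. SLC25A20, the mitochondrial carnitine carrier, went the other way, with a difference of -0.50 (adjusted p = 5.23e-05), and the differences of CPT1A (-0.17, adjusted p = 0.145) and ACADVL did not pass.

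The genes most like a member were taken as those with the smallest root mean square distance between profiles of log2(FPKM + 1) over the 20 libraries, each centred on its own mean. For PLIN2 they were ABCA1, the cholesterol exporter, at a distance of 0.308, CERS4, a ceramide synthase, at 0.376 and CAPN6 at 0.402. ABCA1 had group means of 7.10 FPKM in IMPA, 17.3 in IMA, 35.7 in SPA and 36.6 in SA. For G0S2 the nearest were SPP1 (osteopontin, 0.228), CD44 (0.244) and POSTN (periostin, 0.246), for CIDEC LOC102187632 (0.170), EMX2 (0.171) and AURKC (0.171), and for MGLL ABCC8 (0.0814), LMO7 (0.0904) and STK26 (0.0989). Adding 1 shrinks the log2 differences of low genes, so genes near on this scale can differ in their ratios between groups. LMO7 averaged 128.8 FPKM in IMPA and 32.3 in SPA, while MGLL averaged 3.39 and 0.0371. Likewise, AURKC averaged 13.2 FPKM in IMPA and 54.2 in SPA, while CIDEC averaged 0.333 and 4.65. The group means of PLIN3 and PNPLA2 spanned less than 1 on the log2 scale, and no nearest gene was named for them.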

How the data were processed

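RNA of 20 goat cell culture libraries, 5 each of IMPA, IMA, SPA and SA, was measured. The authors aligned reads to the goat genome and deposited FPKM per transcript and library. The submitters' processing notes name HISAT2 2.0.4, StringTie 1.3.1 and GATK 2.6-5. The deposited FPKM values were used as they stand. All 10 members were matched by gene symbol, and the lncRNA tables were not used here.

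Transcripts were summed per symbol, and the test on log2(FPKM + 1) took genes averaging 1 FPKM or more across all 20 libraries, which understates the change of low genes. Limma 3.58.1 under R 4.3.3, with a variance trend, was fitted to each pair of groups and, for the difference of changes, to all 4. Adjustment followed Benjamini and Hochberg, over all 11432 genes, or over 16706 transcripts for single transcripts. Genes under the minimum were compared by a two-sided exact permutation test (252 ways to divide 10 libraries), in Python 3.11.15 with scipy 1.17.1. The fit was tested on simulated data.

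The members and gene lists were chosen with earlier results of these data known. Other droplet genes were named where they passed with a log2 change of at least 1 after induction (HILPDA) or have a role next to a member (ABHD5, HILPDA, CIDEA), and for members spanning at least 1 on the log2 scale the 3 nearest genes were named. LIPA, PRKAR2B, AUP1, LDAH, FABP5, the genes for droplet formation, ADRB3 and the PPAR targets were named after their values had been seen. Alternatives were another pseudocount, filter, scaling and fit, the aligned share of reads from the study's alignment statistics as a covariate, the most abundant transcript, a replicate block and leaving out libraries. Dropping non-coding models was an alternative chosen after seeing the data. No 2 libraries held identical values.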

Additional observations from a re-analysis of the deposited data

Results flagged for a closer look

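The change of PLIN2 after induction differed between the cell types by 1.11 on the log2 scale, and that of G0S2 by 0.54, both by the test of the difference itself. With the aligned share as a covariate the differences were -0.15 and -0.45, and neither passed. That of G0S2 also did not pass with a pseudocount of 0.1, with the most abundant transcript or without IMPA3. Of 40 combinations of gene and group, 2 held a library whose gap to the nearest other library, as a share of the group's range, was above Dixon's critical value of 0.71 for 5 samples. PLIN4 in SPA2 was at 0.0153 FPKM and PLIN5 in SA2 at 0.0295 FPKM, with the other 4 libraries of each group at 0. Chance gives such a library in about 1 of 20 groups.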

How the results depend on the processing

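Without counts, depth cannot set a limit for single genes, and the low values of PLIN1, PLIN4, PLIN5 and LIPE rest on an unknown number of fragments. With the aligned share as a covariate, 0 members passed in IMA against IMPA and 0 in the difference of the changes, 3 passed in IMPA against SPA, and the genes called fell from 6867 to 731, from 6319 to 2045 and from 8588 to 2332. That covariate is confounded with stage in both cell types and with cell type at both stages. The most abundant transcript in place of the sum left 1 member, PLIN2, in IMA against IMPA and 1 in the difference of the changes, as did a pseudocount of 0.1 for the latter. With a minimum of 0.1 FPKM, 11 of 20 member transcripts passed in IMPA against SPA in place of 7 of 11, when 10606 of all 27973 transcripts passed in place of 8439 of 16706. Leaving out 1 library kept 2 members in IMA against IMPA, 2 to 3 in SA against SPA, 1 to 2 in the difference of the changes (1 without IMPA3) and 6 in both comparisons of cell types. Scaling to the mRNA sum changed the subcutaneous split of genes called from 2982 higher and 2975 lower to 2327 and 4052. The cause of these changes was not tested.

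Directions that turned, on the log2 scale, were these. With the aligned share, IMA against IMPA gave -0.30 for PLIN3, 0.26 for CIDEC and -0.27 for G0S2, SA against SPA gave -0.042 for PNPLA2 and -0.027 for MGLL, and the difference of the changes was -0.15 for PLIN2 and -0.45 for G0S2. With the most abundant transcript, IMA against IMPA gave -0.014 for PLIN3 and -0.25 for MGLL, SA against SPA gave 0.30 for CIDEC, and the difference was -0.32 for CIDEC and -0.25 for MGLL. A pseudocount of 0.1 gave differences of -0.072 for CIDEC and -0.15 for MGLL, scaling to the mRNA sum gave -0.011 for PLIN3 in IMA and a difference of -0.019 for MGLL, and leaving out SPA1 and SA5 gave -0.0039 for MGLL. Leaving out 1 library moved PLIN3 in IMA between -0.013 and 0.069, CIDEC in IMA between -0.10 and 0.047, and the differences of CIDEC between -0.023 and 0.12 and of MGLL between -0.024 and 0.036. Except for PLIN2 and G0S2 with the aligned share, none of these results had passed before.

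The labels do not tie a number to a goat, and samples with the same number deviated together weakly at most, so the numbers were not taken as pairs. Correlations of their deviations were all positive in intramuscular libraries, from 0.0417 to 0.121, and ran from -0.242 to 0.122 in subcutaneous libraries. The library of the same number was the best match for 3 of 5 numbers in intramuscular and 1 of 5 in subcutaneous cells. With the replicate number as a block, 6826 genes were called in IMA against IMPA and 5602 in SA against SPA, in place of 6867 and 5957. PLIN3 then passed in SA against SPA (adjusted p = 0.0409), and PLIN2 had an adjusted p of 8.28e-06 in IMA and 5.07e-06 in SA.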
